A study of Salmo salar with 48 samples.

Results

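Liver DNA methylation of male and female Atlantic salmon (Salmo salar) was compared in all 48 fish of the series. Sex was read from the label of each fish, which gave 23 males and 25 females. How sex was determined is not stated in the labels. The fish were juveniles from the St. John River strain, a commercial aquaculture broodstock. Each fish gave 1 library of bisulfite-converted, PCR-amplified liver DNA, so that the counts at a CpG give the share of unconverted reads, called methylated. The conversion rate is not given in the sources used here, so low levels may include bases that failed to convert.

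Warm hypoxic fish (WH) were kept at 70% air saturation and warmed from 12 to 20 °C by 1 °C per week. Warm normoxic fish (WN) followed the same warming at 100% air saturation. Control fish (CT) stayed at 12 °C and 100% air saturation. Livers were sampled 4 weeks and 3 days after the warmed fish had reached 20 °C, with 8 fish in each of the 6 groups. At 4 weeks there were 2 males and 6 females in WH, 5 males and 3 females in WN, and 5 males and 3 females in CT. At 3 days there were 5 males and 3 females in WH, 4 males and 4 females in WN, and 2 males and 6 females in CT. Each treatment was held in 2 tanks, and sex was not balanced over them. Of the WH fish at 3 days, tank T1 gave 4 males and 0 females, and tank T6 gave 1 male and 3 females. Of the CT fish at 3 days, tank T3 gave 2 males and 2 females, and tank T4 gave 0 males and 4 females. Of the WN fish at 3 days, tank T2 gave 1 male and 3 females, and tank T5 gave 3 males and 1 female.

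As background, cytosine methylation at CpG sites is kept through cell division by maintenance methyltransferases, and dense methylation of a promoter usually goes with low transcription. Salmon, like other salmonids, have a male-determining locus and weakly differentiated sex chromosomes. In egg-laying vertebrates the liver of a maturing female makes the egg yolk precursor vitellogenin under the control of oestrogen, so it is an organ whose gene activity differs strongly between the sexes at maturity. The fish measured here were juveniles.

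The amplified DNA covered 7 short regions. Regions are named by chromosome, with the megabase position where a chromosome holds more than 1. A total of 94 CpGs in 6 regions had at least 30 reads in every fish and were compared. These were ssa03 (chr3:13688232-13688647, 16 CpGs), ssa04 at 35 Mb (chr4:35435825-35436217, 18 CpGs), ssa04 at 45 Mb (chr4:44947109-44947524, 15 CpGs), ssa09 (chr9:121687029-121687311, 8 CpGs), ssa14 (chr14:33502562-33502977, 14 CpGs) and ssa16 (chr16:37941696-37942102, 23 CpGs). Positions follow the authors' reference, whose build is not named in the sources used here, although its sequence identifiers carry versions. Genes were not analysed here. Calls in the regions per fish ranged from 2337845 to 4890736 with a median of 3156308 in males, and from 1939550 to 4812514 with a median of 3398725 in females (two-sided permutation of sex within the 6 groups, 100000 resamples, p = 0.174). The shallowest compared region by median was ssa03, with a median of 504 reads per CpG in males and 434 in females. The lowest mean depth of a fish in a compared region was 58.5 reads, in a male at ssa04 (45 Mb). Reads at ssa09 were lower in males, with medians of 74408 in males and 94245 in females, a difference of -0.126 on the log10 scale (permutation p = 0.0428, adjusted p = 0.385 over 9 depth measures).

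The mean levels of males and females differed by less than the SD between fish of either sex at all 6 regions. Mean levels were 92.3% ± 1.37 in males and 92.3% ± 0.988 in females at ssa09, a densely methylated region. At the partly methylated ssa04 (35 Mb) they were 27.2% ± 5.34 in males and 26.1% ± 4.25 in females. The other 4 regions were nearly unmethylated, and how far incomplete conversion adds to their levels was not tested. Their means were 1.34% ± 0.417 in males and 1.38% ± 0.501 in females at ssa14, and 0.668% ± 0.128 in males and 0.714% ± 0.165 in females at ssa03. They were 0.538% ± 0.152 in males and 0.474% ± 0.124 in females at ssa04 (45 Mb), and 0.538% ± 0.0581 in males and 0.541% ± 0.0514 in females at ssa16 (SD over fish, n = 23 males and 25 females throughout).

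**Figure D1:**
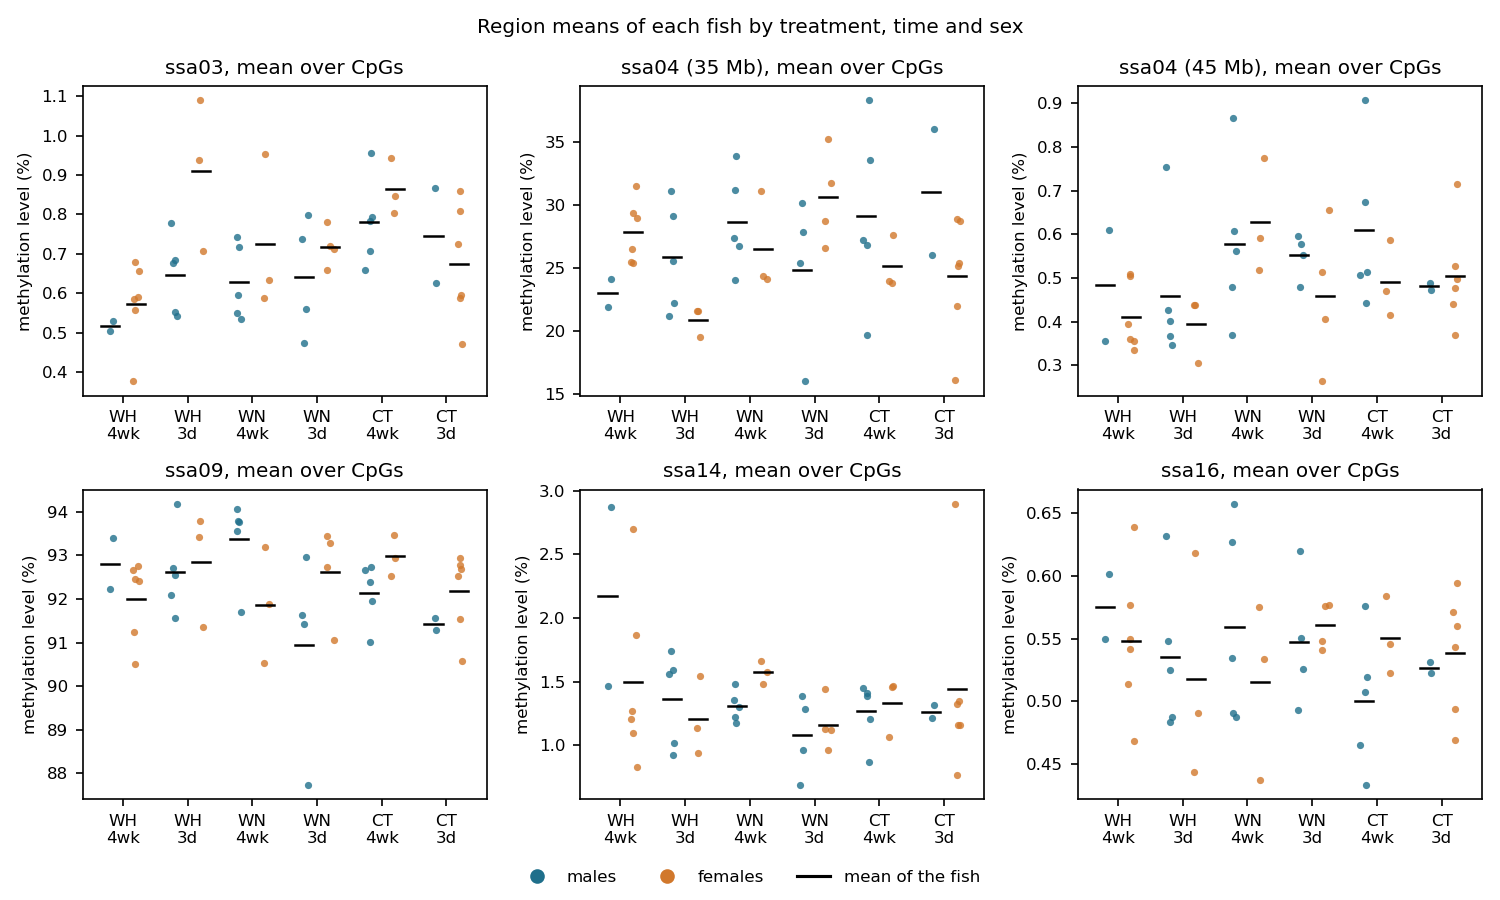
Mean methylation level (%) of each of the 6 compared regions in each of the 48 fish, by treatment and time, with males to the left of females in each group; a point is a fish and a line is the mean of its group and sex. The sexes overlap in nearly every panel, and ssa04 (35 Mb) shows the widest scatter of fish, from 16.0% to 38.3% in males and from 16.1% to 35.2% in females.

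Because the numbers of males and females differed between groups, the difference between the sexes was estimated with treatment and time held fixed. The estimate is the male coefficient of an additive model of the 6 groups and sex, in percentage points, and its p came from permuting sex within groups. No region passed an adjusted p of 0.05 (0 of 6, adjusted by Benjamini-Hochberg over the 6 regions), and 1 region, ssa03, had an unadjusted p below 0.05. At ssa03 males were lower by the estimate, -0.0909 points (SE 0.0390, 95% interval -0.169 to -0.0116, permutation p = 0.0258, adjusted p = 0.155). That is -0.680 of the SD between fish of the same group. At ssa04 (45 Mb) the difference was 0.0479 points (interval -0.0352 to 0.131, permutation p = 0.252, adjusted p = 0.757). CT 4-week male fish 108 had the highest level there, 0.908%, at the lowest depth, 58.5 reads per CpG. Without that fish the difference was 0.0346 points (permutation adjusted p = 0.836).

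The remaining regions had estimates nearer to 0 in units of the spread between fish. The difference was 1.11 points at ssa04 (35 Mb), with an interval of -1.92 to 4.15 (permutation adjusted p = 0.825). Leaving out single fish moved it to between 0.324 points, without CT 3-day male fish 82, and 1.79 points, without WN 3-day male fish 77. At ssa09 it was -0.231 points, with an interval of -0.975 to 0.508 (permutation adjusted p = 0.825), and -0.0133 points without WN male fish 77 or -0.401 points without WN 4-week female fish 102. At ssa14 it was 0.0255 points (interval -0.237 to 0.293) and at ssa16 0.00163 points (interval -0.0334 to 0.0368), both with a permutation adjusted p of 0.926. In units of the SD between fish of a group, the interval ran from -0.397 to 0.856 at ssa04 (35 Mb) and from -0.828 to 0.432 at ssa09.

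**Figure D2:**
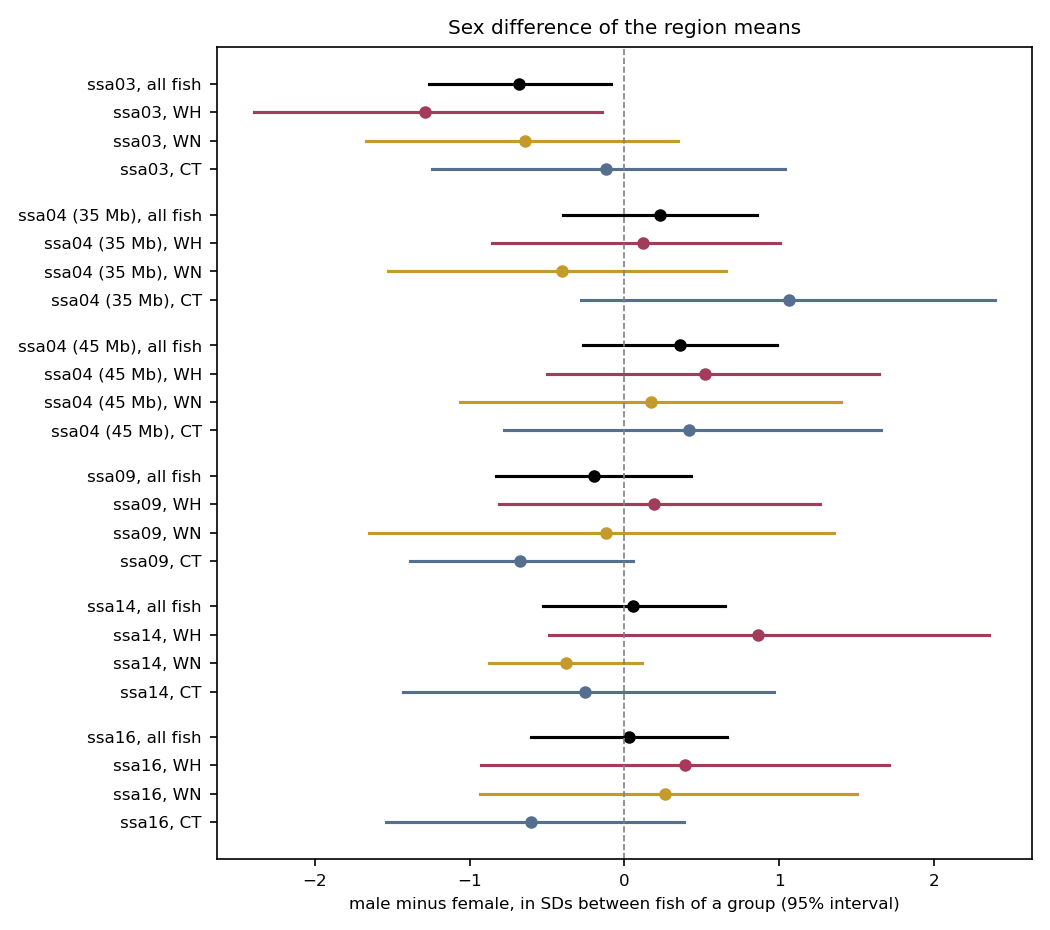
Difference between the sexes (male minus female) in each region, in units of the SD between fish of the same group, over all fish and within each treatment; points are estimates and bars are 95% intervals from inverting the permutation test. The interval over all fish leaves out 0 only at ssa03, from -1.26 to -0.0864 SD, and within treatments only at ssa03 in WH.

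No single CpG passed over all fish. Of the 94 CpGs, 0 had an adjusted p below 0.05 (0% called), and 4 had an unadjusted p below 0.05 (4.26% of those tested), by permutation of sex within groups with Benjamini-Hochberg adjustment over the 94. limma on M-values and a comparison that weighted fish by their reads also called 0. Males had the higher estimate at 53 CpGs and the lower one at 41. The median size of the difference was 0.177 SD between fish, and the largest was 0.795 SD. The difference exceeded 1 percentage point in either direction at 8 CpGs, and ranged from -1.07 to 3.75 points. Over all 94 CpGs, each scaled to the same SD, sex took 1.87% of the variation within groups, against a mean of 2.40% when sex was permuted (permutation p = 0.858).

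The directions at single CpGs grouped by region. At ssa04 (35 Mb) the estimate was higher in males at 17 of 18 CpGs and at ssa03 lower in males at 13 of 16. At ssa09 it was higher in males at 3 of 8, at ssa04 (45 Mb) at 7 of 15, at ssa14 at 9 of 14 and at ssa16 at 14 of 23. CpGs of a region share their reads, so these counts describe the regions and carry no test of their own. Of the 4 CpGs with an unadjusted p below 0.05, 1 lay in ssa03, 2 in ssa04 (45 Mb) and 1 in ssa16.

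**Figure D3:**
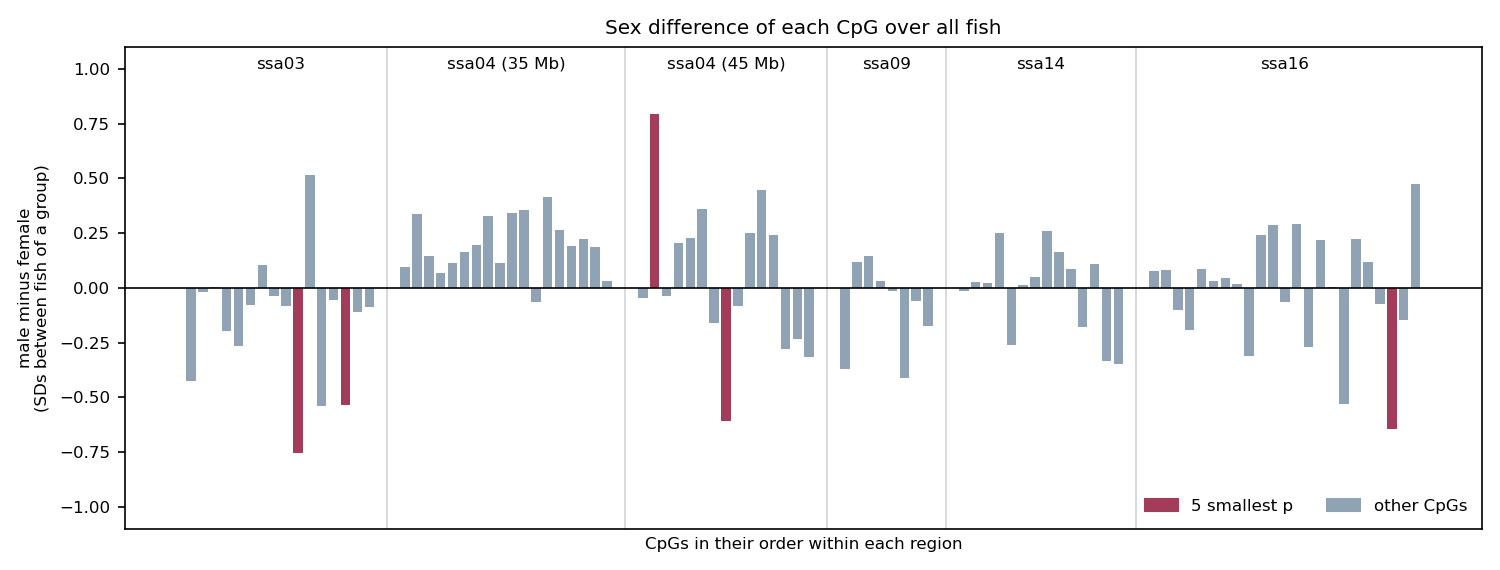
Difference between the sexes (male minus female, in units of the SD between fish of the same group) at each of the 94 CpGs in order along each region, over all fish. Bars are estimates, red bars mark the 5 CpGs with the smallest p, and the values lie between -0.753 and 0.795 SD; at ssa04 (35 Mb) 17 of 18 bars point up.

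The CpG with the smallest p was the second of ssa04 (45 Mb), at chromosome 4 position 44947115. In WH fish at 4 weeks its level was 0.175% and 2.40% in the 2 males, against a lowest of 0.223%, a median of 0.569% and a highest of 0.992% in the 6 females. The 3-day levels were 0.205%, 0.210%, 0.351%, 0.360% and 0.417% in WH males, against 0.165%, 0.181% and 0.191% in WH females, so the sexes did not overlap in that group. In WN fish at 4 weeks it was 0.179%, 0.183%, 0.221%, 0.238% and 0.239% in males, against 0.156%, 0.244% and 0.244% in females, which overlapped.

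At 3 days the same CpG had 0.270%, 0.879%, 1.05% and 1.12% in WN males, against 0.178%, 0.238%, 0.318% and 0.974% in WN females. In CT fish at 4 weeks it had 0.415%, 0.484%, 0.788%, 0.923% and 3.45% in males, against 0.203%, 0.235% and 0.650% in females. The 2 CT males of 3 days had 1.17% and 1.71%, against a lowest of 0.246%, a median of 0.318% and a highest of 1.41% in the 6 CT females. The male mean was the higher one in 5 of 6 groups. Over all fish the level was 0.759% ± 0.814 in males and 0.414% ± 0.331 in females (SD, n = 23 and 25), a difference of 0.483 points (SE 0.173, permutation p = 0.00168, adjusted p = 0.158).

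The highest value of this CpG, 3.45% in CT male fish 108, was 2 methylated calls of 58 reads, the lowest depth of any fish there, whereas the median depth was 25178 reads. Without that fish the difference was 0.386 points (permutation adjusted p = 0.152). The result turned on other fish: without WH 4-week male fish 97 it was 0.564 points and passed (permutation adjusted p = 0.0122), and without WH 4-week male fish 120 it was 0.373 points (adjusted p = 0.817). Fish 120 also ranked among the highest 3 fish for calls off the amplified regions. Without tank T1 the difference was 0.617 points and passed (permutation adjusted p = 0.0376), and without tank T3 it was 0.279 points (adjusted p = 0.988). This CpG did not pass with sex permuted within tanks as well as groups, nor with fish weighted by reads. The cause of the difference was not tested.

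Other CpGs followed at larger p. In ssa03, position 13688501 (CpG 10 of 16) had 0.483% ± 0.410 in males and 0.724% ± 0.666 in females, a difference of -0.414 points (SE 0.158, permutation p = 0.0118, adjusted p = 0.553). Its depth was 159 to 21227 reads per fish, and 7 males and 2 females had 0 methylated calls. In ssa16, position 37942071 (CpG 21 of 23) had 0.381% ± 0.198 in males and 0.568% ± 0.302 in females, with the male mean higher in 1 of 6 groups (difference -0.169 points, permutation p = 0.0309, adjusted p = 0.969). The eighth CpG of ssa04 (45 Mb), position 44947216, had 0.357% ± 0.282 in males and 0.681% ± 0.708 in females (difference -0.337 points, permutation p = 0.0465, adjusted p = 0.994). It lies in the same region as the CpG with the smallest p and had the opposite sign. In ssa03, position 13688604 (CpG 14 of 16) had 0.551% ± 0.424 in males and 0.838% ± 0.545 in females, and the male mean was the lower one in all 6 groups (difference -0.267 points, permutation p = 0.0779, adjusted p = 0.994).

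**Figure D4:**
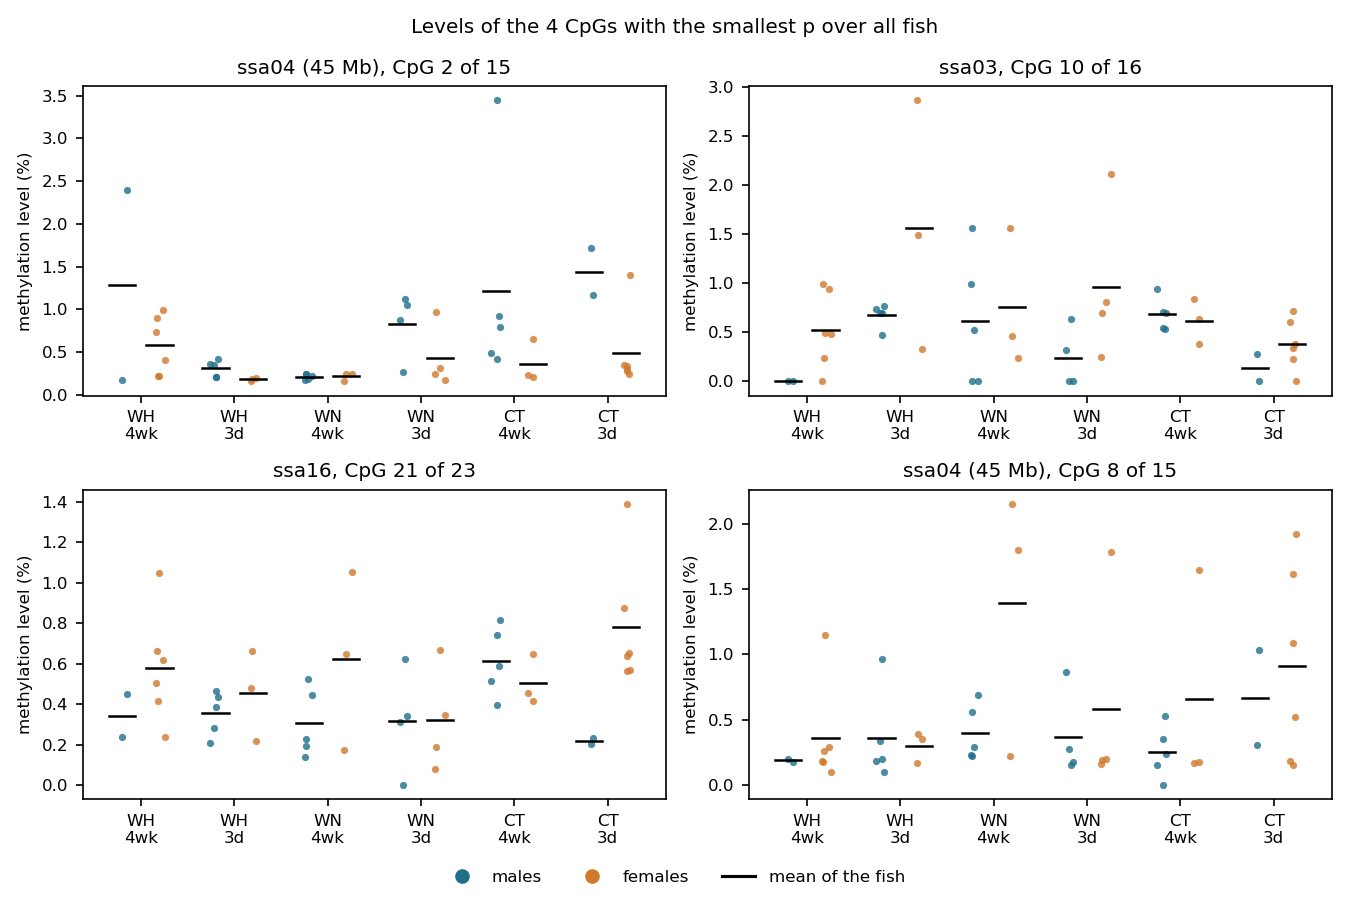
Methylation level (%) in each fish of the 4 CpGs with the smallest p over all fish, by treatment and time, males to the left of females; points are fish and lines are the mean of a sex in a group. In the second CpG of ssa04 (45 Mb) 2 males stand highest, at 3.45% and 2.40%.

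The ssa03 region, where the sexes stood furthest apart in units of spread, was followed through all groups. In WH fish at 4 weeks its mean level was 0.505% and 0.530% in males, against a lowest of 0.376%, a median of 0.587% and a highest of 0.679% in females. After 3 days the region stood at 0.542%, 0.553%, 0.677%, 0.683% and 0.778% in WH males, against 0.707%, 0.937% and 1.09% in WH females. Only the highest male overlapped the females there (difference -0.265 points, exact permutation p = 0.0357, where 0.0179 is the smallest possible).

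In WN fish at 4 weeks ssa03 had 0.534%, 0.551%, 0.595%, 0.718% and 0.744% in males, against 0.588%, 0.634% and 0.953% in females. The 3-day values were 0.473%, 0.559%, 0.737% and 0.798% in WN males, against 0.658%, 0.712%, 0.719% and 0.781% in WN females. The sexes overlapped in both WN groups. In CT fish at 4 weeks it had 0.660%, 0.706%, 0.784%, 0.794% and 0.956% in males, against 0.804%, 0.847% and 0.943% in females. The 2 CT males of 3 days had 0.625% and 0.866%, against a lowest of 0.471%, a median of 0.660% and a highest of 0.860% in CT females. The male mean was the higher one only in that last group.

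Within treatments the ssa03 difference was -0.172 points in WH, with 0.610% ± 0.103 in males (n = 7) and 0.686% ± 0.212 in females (n = 9). Its interval was -0.320 to -0.0198 (exact permutation p = 0.0281, adjusted p = 0.168), and without female fish 96 it was -0.114 points. In WN it was -0.0859 points (interval -0.223 to 0.0466, exact permutation adjusted p = 0.564) and -0.0371 points without female fish 103, and in CT -0.0155 points (interval -0.166 to 0.138, exact permutation adjusted p = 0.830). The difference between the treatments was itself tested and did not pass (sex by treatment, F = 1.30, permutation adjusted p = 0.564). Tanks move with sex in WH at 3 days: all 3 females came from tank T6, whose single male had 0.677% against a mean of 0.911% in those females, while the 4 males of tank T1 averaged 0.639%. With sex permuted within tanks as well as groups, the ssa03 difference over all fish was -0.0761 points (permutation adjusted p = 0.477). In WH it was -0.116 points (permutation adjusted p = 0.656). At 3 days tank T1 of WH and tank T4 of CT gave only 1 sex, so their fish add nothing to these estimates. In WH only sets of 1 male and 3 females are then left. These allow too few arrangements for 1 region to pass by itself, so the WH test cannot decide. Without tank T6 the ssa03 difference was -0.0513 points over all fish (permutation adjusted p = 0.684), and without tank T3 it was -0.129 points and passed (adjusted p = 0.0270). Without CT 3-day male fish 81 it was -0.112 points and also passed (permutation adjusted p = 0.0379). Methylated calls behind the ssa03 level had a median of 49 in males and 47 in females. The median counting error of a fish was 0.0960 points, against an SD between fish of the same group of 0.134 points. That error treats the CpGs of the region as independent, although they share reads, so it may be too small.

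**Figure D5:**
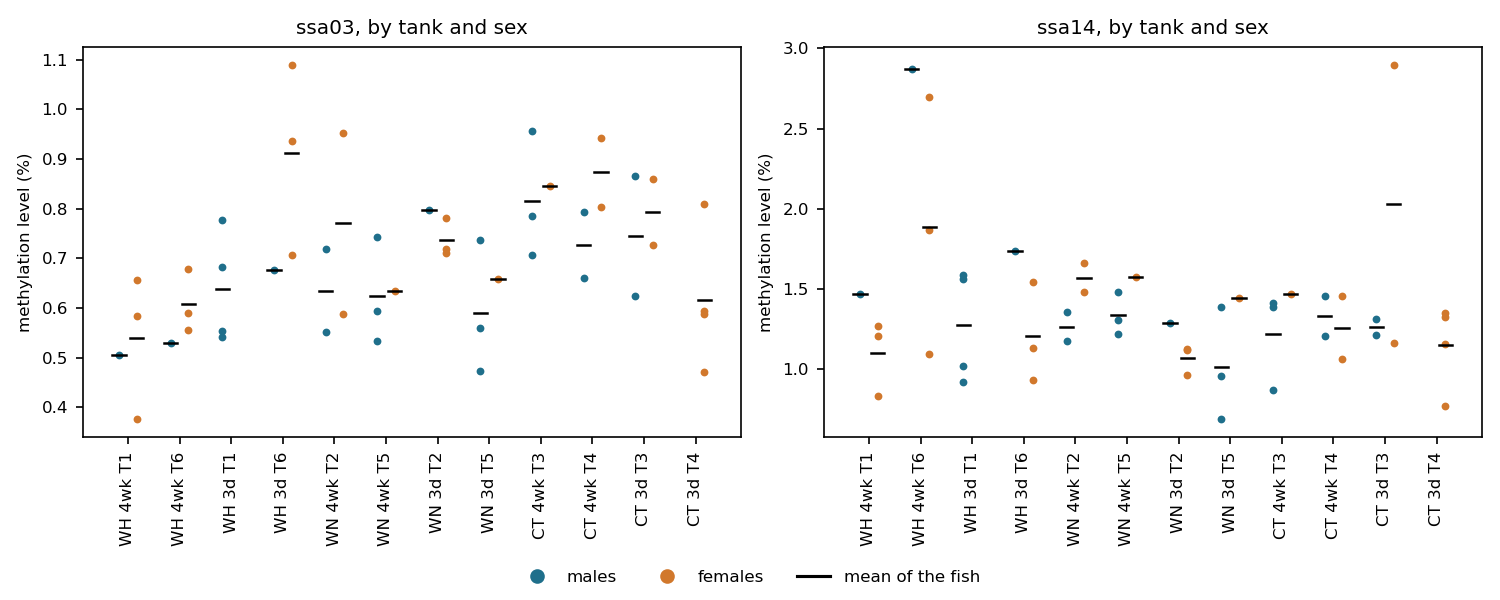
Mean level (%) of ssa03 and ssa14 in each fish, by group and by the tank within it, males in blue to the left of females in orange; each point is a fish and each line the mean of a sex in a tank. In WH at 3 days tank T1 held 4 males and 0 females, so most of the sex comparison of that group is between tanks.

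At ssa04 (35 Mb), where the fish varied most, the sign of the sex difference was not the same in the 3 treatments. The sign also turned between the times within WH and within WN. In WH fish at 4 weeks the level of this region was 21.9% and 24.1% in males, against a lowest of 25.4%, a median of 27.7% and a highest of 31.5% in females. This was the only pair of sexes in any region and group that did not overlap (exact permutation p = 0.0714, where 0.0357 is the smallest possible). With 2 males and 6 females, 2 of the 28 arrangements of sex separate them, and every region and group was searched. A single such pair therefore does not set this region apart. After 3 days the level of the region stood at 21.2%, 22.2%, 25.5%, 29.1% and 31.1% in WH males, against 19.5%, 21.6% and 21.6% in WH females, with the males higher on average.

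In WN fish at 4 weeks the region had 24.0%, 26.7%, 27.4%, 31.2% and 33.8% in males, against 24.1%, 24.4% and 31.1% in females. The 3-day values were 16.0%, 25.4%, 27.8% and 30.1% in WN males, against 26.6%, 28.7%, 31.8% and 35.2% in WN females. The sexes overlapped at both times in WN. In CT fish at 4 weeks it had 19.7%, 26.8%, 27.2%, 33.6% and 38.3% in males, against 23.8%, 24.0% and 27.6% in females. The 2 CT males of 3 days had 26.0% and 36.0%, against a lowest of 16.1%, a median of 25.3% and a highest of 28.9% in CT females.

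By group, the ssa04 (35 Mb) difference was -4.87 points at 4 weeks and 4.93 points at 3 days in WH. It was 2.10 and -5.74 points in WN, and 3.97 and 6.63 points in CT. Held over both times, the ssa04 (35 Mb) difference was 0.575 points in WH (exact permutation adjusted p = 0.790), -1.95 points in WN (adjusted p = 0.897) and 5.15 points in CT (interval -1.36 to 11.6, exact permutation p = 0.106, adjusted p = 0.318). Single fish moved all 3 values. The WH difference was -0.429 points without female fish 93 and 2.20 points without male fish 97. The WN difference was -0.239 points without male fish 77 and -2.98 points without female fish 115, and the CT difference was 3.24 points without male fish 82. The estimate was higher in males at 11 of 18 CpGs in WH, at 2 of 18 in WN and at 18 of 18 in CT. Sex by treatment gave F = 2.05 for this region (permutation p = 0.142, adjusted p = 0.564), so the differences among treatments were not separated from the spread between fish.

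At ssa09 the difference was 0.228 points in WH, -0.140 points in WN and -0.794 points in CT (CT interval -1.63 to 0.0630, exact permutation p = 0.0644, adjusted p = 0.318). In CT the level was 91.9% ± 0.682 in males (n = 7) and 92.4% ± 0.868 in females (n = 9), and the estimate was lower in males at all 8 CpGs. By time, ssa09 had the smallest p of the 6 regions for sex by time, F = 3.94 (permutation p = 0.0545, adjusted p = 0.327). At 4 weeks the difference was 0.475 points, with 92.8% ± 0.962 in males and 92.2% ± 0.981 in females (n = 12 each). At 3 days it was -0.920 points, with 91.8% ± 1.60 in males (n = 11) and 92.5% ± 1.02 in females (n = 13). Those males include WN fish 77, the lowest male of all, at 87.7%. By group, the difference at 4 weeks and 3 days was 0.808 and -0.236 points in WH, and 1.51 and -1.69 points in WN. In CT it was -0.832 and -0.748 points, without a change of sign. Leaving out single fish gave F for sex by time between 2.52 and 5.82.

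ssa14 had a difference of 0.390 points in WH, with 1.60% ± 0.640 in males and 1.40% ± 0.579 in females, and of -0.170 points in WN and -0.115 points in CT (exact permutation adjusted p of 0.597, 0.564 and 0.784). Without WH 4-week male fish 120 the WH difference was 0.103 points, and without CT 3-day female fish 84 the CT difference was 0.0127 points. Sex by treatment gave F = 1.64 (permutation adjusted p = 0.564). With tank added to the model F was 5.89 and passed (permutation adjusted p = 0.0387). That value rested on single fish, since leaving out each fish in turn gave F between 2.75, without WH 4-week male fish 120, and 7.39, without CT 3-day female fish 84. In 12 of the 48 such fits it no longer passed. Fish 120 and 84 had the highest ssa14 levels of their sex, 2.87% and 2.90%, and the highest numbers of calls off the amplified regions. ssa16 had differences of 0.0218 points in WH, 0.0146 points in WN and -0.0334 points in CT, and ssa04 (45 Mb) of 0.0691, 0.0227 and 0.0557 points in WH, WN and CT (exact permutation adjusted p of 0.409 or more for ssa16, and of 0.686 or more for ssa04 at 45 Mb). Without CT 4-week male fish 108 the CT difference at ssa04 (45 Mb) was 0.0127 points.

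Among single CpGs within treatments, 0 of 94 passed in WH, WN or CT. The smallest possible exact permutation p was 0.000638 in WH and in CT, and 0.000255 in WN. In WH and CT a CpG at that p could not pass by itself after adjustment over the 94, so the absence of calls there decides little. The numbers with an unadjusted exact permutation p below 0.05 were 6 in WH (6.38% of those tested), 7 in WN (7.45%) and 4 in CT (4.26%). The sign was the same in all 3 treatments at 18 of 94 CpGs, of which 8 were higher in males and 10 lower. Of those 18, 4 were lower CpGs of ssa03, 4 higher and 1 lower lay in ssa04 (45 Mb), and 2 higher and 3 lower in ssa16. ssa14 held 1 higher and 1 lower, ssa04 (35 Mb) 1 higher and ssa09 1 lower. Signs also agree by chance, so these counts carry no test.

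The smallest p in WH belonged to the first CpG of ssa03, position 13688232. At 4 weeks it had 0.264% and 0.535% in WH males, against a lowest of 0%, a median of 0.781% and a highest of 2.39% in WH females. At 3 days it had 0.214%, 0.405%, 0.453%, 0.461% and 0.923% in WH males, against 1.43%, 1.66% and 4.80% in WH females, with no overlap. Each of these 3 female values came from 5 to 13 methylated calls at a depth of 271 to 349 reads, and all 3 females were from tank T6, whose single male had 0.214%. The WH difference was -1.40 points (SE 0.547, exact permutation p = 0.00574, adjusted p = 0.510), and it was -0.755 points without WH 3-day female fish 96, which had the 4.80%. In WN it was -0.253 points and in CT 0.535 points. Of all CpGs this one had the smallest p for sex by treatment, F = 5.27 (permutation p = 0.00830, adjusted p = 0.376).

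Other CpGs with the smallest p in a treatment were spread over 5 regions. In WH, ssa14 position 33502700 differed by -0.374 points (0.379% ± 0.160 in males, 0.734% ± 0.295 in females, exact permutation p = 0.0159) and ssa03 position 13688501 by -0.726 points (exact permutation p = 0.0217), each with an adjusted p of 0.510. Without WH 3-day female fish 94 the difference at 13688501 was -0.384 points. In WN, ssa03 position 13688523 was at 0.732% ± 0.505 in males and 0.101% ± 0.183 in females (difference 0.601 points, exact permutation p = 0.00740, adjusted p = 0.552). At that CpG 5 of the 7 WN females had 0 methylated calls of 289 to 496 reads, and all 9 WN males had at least 1. A count of 0 allows a level of up to 1.04% at 289 reads and 0.605% at 496 reads (3 counts of the total), on either side of the male mean.

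Also in WN, ssa16 position 37941981 differed by -0.265 points (exact permutation p = 0.0117, adjusted p = 0.552) and ssa14 position 33502632 by -0.707 points (exact permutation p = 0.0253, adjusted p = 0.595). In CT, ssa16 position 37941729 was at 0.300% ± 0.119 in males and 0.581% ± 0.205 in females (difference -0.328 points, exact permutation p = 0.00383, adjusted p = 0.360). In the 4-week CT fish it had 0.167% to 0.513% in males, against 0.611% to 0.940% in females, with no overlap. In the 3-day CT fish the sexes overlapped, with 0.253% and 0.351% in males against 0.195% to 0.675% in females. The CpG was chosen by its small p in CT, so the separation at 4 weeks is no further support. The estimates at this CpG were 0.0623 points in WH and 0.0580 points in WN. The second CpG of ssa04 (45 Mb) differed by 0.897 points in CT (exact permutation p = 0.0281), and ssa04 (35 Mb) position 35435935 by 7.72 points (23.7% ± 7.65 in males, 16.2% ± 4.12 in females, exact permutation p = 0.0415), each with an adjusted p of 0.543. Without the low-depth CT 4-week male fish 108 the CT difference at the second CpG of ssa04 (45 Mb) was 0.601 points.

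Sex by treatment passed at 0 of 94 CpGs (0% called), and 11 had an unadjusted p below 0.05 (11.7% of those tested). Sex by time passed at 0 of 94, and 4 had an unadjusted p below 0.05 (4.26%). After the first CpG of ssa03, the smallest p for sex by treatment was at ssa16 position 37942051, with differences of 0.396 points in WH, -0.221 points in WN and -0.222 points in CT (F = 4.50, permutation p = 0.0175, adjusted p = 0.376). The smallest p for sex by time was at ssa09 position 121687112 (F = 8.17, permutation p = 0.00719, adjusted p = 0.509), where the difference was 0.851 points at 4 weeks and -0.769 points at 3 days. In WH at 4 weeks its 2 males had 95.7% and 96.6%, above all 6 females, which had 93.4% to 94.9%. The sexes overlapped in every other group. In CT the sign did not change, with male and female means of 94.7% and 94.9% at 4 weeks and of 93.1% and 94.6% at 3 days. At ssa03 position 13688637 the difference was -0.539 points at 4 weeks and 0.392 points at 3 days (F = 6.96, permutation p = 0.0114, adjusted p = 0.509).

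Within the 6 groups, CpGs at which the sexes did not overlap numbered 15 of 94 in WH at 4 weeks (16.0% of those tested), 1 in WN at 4 weeks (1.06%) and 4 in CT at 4 weeks (4.26%). At 3 days they numbered 4 in WH (4.26%), 7 in WN (7.45%) and 7 in CT (7.45%). In WH at 4 weeks all males lay above all females at 7 of these CpGs and below them at 8. That group held 2 males, 1 from each tank, so few fish set these counts. CT at 3 days also held 2 males. The share that chance alone gives depends on the numbers of each sex, so the shares cannot be compared between groups with different numbers. Where no 2 fish have the same level, the sexes separate in 2 of 28 arrangements with 2 males and 6 females. With 5 males and 3 females it is 2 of 56, and with 4 of each sex 2 of 70. The smallest possible exact permutation p is 0.0357, 0.0179 and 0.0286 in turn, so p takes few values below 0.05. An unadjusted exact permutation p below 0.05 was found at 10 CpGs in WH (10.6%), 1 in WN (1.06%) and 3 in CT (3.19%) at 4 weeks, and at 3 in WH (3.19%), 7 in WN (7.45%) and 2 in CT (2.13%) at 3 days.

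WH and CT fish, split by sex, are given here for ssa03 as values without a test. At 4 weeks males had 0.517% in WH (n = 2) and 0.780% in CT (n = 5). Females had 0.574% in WH (n = 6) and 0.864% in CT (n = 3). At 3 days males had 0.647% in WH (n = 5) and 0.745% in CT (n = 2). Females of 3 days stood the other way, with 0.911% in WH (n = 3) and 0.675% in CT (n = 6).

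The spread between fish was compared as well, as the deviation of each fish from its group mean, and no region passed. That mean is taken over both sexes. A difference in level between the sexes therefore also adds to the deviation, more so in the sex with fewer fish. The mean absolute deviation from the group mean at ssa04 (35 Mb) was 4.03 points in males and 2.97 points in females (permutation p = 0.269, adjusted p = 0.931). At the other 5 regions the permutation adjusted p was 0.931 or more. At ssa03 the deviation was 0.0992 points in males and 0.102 points in females.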

How the data were processed

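DNA from 48 livers was bisulfite-converted, amplified and sequenced on an Illumina MiSeq instrument, per the labels' protocols. Reads were processed with Bismark 0.20.0, Bowtie2, MultiQC 1.9 and Trim Galore 0.4.4, per the submitters' processing notes. The build is not named in the sources used here, and settings, duplicate handling and conversion rate are not given in them. Deposited values are counts of methylated and unmethylated calls per CpG and fish, per the file contents, without normalization. A level is 100 times methylated calls over all calls.

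The members, regions and lists were chosen with earlier results of these data known. CpGs with 30 reads in every fish were used, and region means are unweighted over CpGs. Sex was permuted within the 6 groups (100000 resamples) or, within a treatment, within its 2 times by complete enumeration (1568 arrangements in WH and CT, 3920 in WN). All tests were two-sided except those of F and of the share of variation, which are one-sided by construction. Interactions used permuted residuals. Adjustment was by Benjamini-Hochberg, separately over the 94 CpGs and 6 regions of a comparison, with a threshold of 0.05. Intervals are 95%, by test inversion. Software was Python 3.11.15, numpy 2.4.6 and, in R 4.3.3, limma 3.58.1 on M-values (log2 ratio with a pseudocount of 1). The code was tested on simulated data.

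Alternatives were coverage minimums of 10 and 100 reads, a minimum per fish, weighting by reads, limma without and with a tank block, ranks, strata of tank, equal group weights, no strata, and leaving out each fish, each tank or the 3 fish with most calls outside the regions. Leaving out each fish with tank as a term was added after the data were seen. Named CpGs are, with none past the threshold, the 5 with the smallest p over all fish, 3 in each treatment and 2 for each interaction. P-values measure the spread between fish, not between tanks. The most alike 2 fish of any group and sex had a chi-square of 51.9 per CpG. Reads carry no molecular identifiers, so counting errors and limits from a count of 0 cover counting error only.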

Additional observations from a re-analysis of the deposited data

Results flagged for a closer look

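A fish was listed when its gap to the nearest fish of the same sex, treatment or group exceeded Dixon's 95% critical value. Not every set of fish was examined at each named CpG. Chance alone exceeds that value in about 1 in 20 groups only if groups are independent and levels normally distributed, which was not tested. Here 24 of 172 groups were listed. The groups share fish, since a treatment contains its times, and the named CpGs were chosen by small p. The count therefore cannot be compared with that rate, and it carries no test.

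Among region means, WN males held ssa04 (45 Mb) fish 114 at 0.867%, the next being 0.609%, and ssa09 fish 77 at 87.7%, the next being 91.4%. In WH males at 3 days, fish 74 had 0.754% at ssa04 (45 Mb), and in WN males at 4 weeks fish 116 had 91.7% at ssa09. At ssa14 the WH male fish 120 stood at 2.87%, the CT male fish 107 at 0.867% and the CT female fish 84 at 2.90%, the last both within CT and within its 3-day group. The WN female fish 103 was lowest at ssa16, with 0.437%.

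Among ssa03 CpGs, position 13688232 had 4.80% in WH female fish 96 and 1.58% in WN male fish 90. Position 13688501 had 0.473% in WH 3-day male fish 73, and position 13688523 had 0.249% in WN 3-day female fish 91, whose 3 companions had 0 methylated calls.

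In ssa04 (45 Mb), position 44947115 had 3.45% in CT male fish 108, from 58 reads, and 1.41% in CT female fish 85. Each stood apart both within CT and within its own time. Position 44947216 had single high fish in both sexes: WH 3-day male fish 76 at 0.965%, WN 3-day male fish 92 at 0.866%, WH 4-week female fish 117 at 1.15% and WN 3-day female fish 79 at 1.78%.

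In other regions, ssa09 position 121687112 had 94.9% in WH 4-week female fish 98, ssa14 position 33502632 had 2.40% in WN male fish 114, and ssa16 position 37942051 had 1.38% in CT female fish 85.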

How the results depend on the processing

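No region or CpG passed over all fish, and most alternatives left that as it was; the cause of each change below was not tested. The count of CpGs over all fish was 1 without tank T1 and 0 to 1 when each fish was left out. The ssa03 difference was -0.129 points without tank T3 and -0.112 to -0.0707 without single fish. In WH it was -0.215 points with fish weighted by reads (exact permutation adjusted p = 0.0459) and -0.208 to -0.114 without single fish (adjusted p = 0.0306 without female fish 98). Sex by treatment at ssa14 with tank as a term gave F = 5.89, and 2.75 to 7.39 without single fish.

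Estimates near 0 turned sign. Over all fish ssa14 was -0.0452 with limma and -0.0501 with its tank block (both log2 M-values), -0.518 in ranks, -0.0128 with 12 strata of group and tank, -0.0407 without strata, -0.0326 without tank T4, -0.0965 without tank T6 and -0.0322 without the 3 fish with most calls outside the regions. Under the same settings ssa16 was -0.0134 with limma, -0.00391 with its tank block, -0.329 in ranks, -0.00288 without strata, -0.00953 without tank T6 and -0.000878 without the 3 fish, and it was -0.00401 without tank T2. Without single fish ssa14 was -0.0766 to 0.0663 and ssa16 -0.00572 to 0.00803.

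Weighted by reads, WH ssa09 was -0.147, WN ssa04 (45 Mb) -0.00293 and CT ssa03 0.0120. With limma, in log2 M-values and not in points, WN ssa04 (45 Mb) was -0.0244, WN ssa09 0.0149 and CT ssa03 0.0427. Without single fish, WH ssa04 (35 Mb) was -0.429 to 2.20, WH ssa09 -0.0928 to 0.527, WN ssa04 (45 Mb) -0.0142 to 0.0630, WN ssa09 -0.634 to 0.494, WN ssa16 -0.00557 to 0.0254, CT ssa03 -0.0736 to 0.0141 and CT ssa14 -0.187 to 0.0127. Some estimates kept their sign and moved by over 1.5 times: over all fish ssa04 (35 Mb) was 0.324 to 1.79 and ssa09 -0.401 to -0.0133, WH ssa14 was 0.103 to 0.543, WH ssa04 (45 Mb) 0.0282 to 0.108, WH ssa16 0.00436 to 0.0471, WN ssa03 -0.113 to -0.0371, WN ssa04 (35 Mb) -2.98 to -0.239, CT ssa04 (35 Mb) 3.24 to 6.47 and CT ssa04 (45 Mb) 0.0127 to 0.0769. In WH the ssa03 CpG at 13688232 was -1.66 to -0.755, and that at 13688501 came as near to 0 as -0.384. The difference in spread was -0.0153 to 0.00883 at ssa03, -0.00127 to 0.0206 at ssa04 (45 Mb), -0.0595 to 0.0369 at ssa14 and -0.00637 to 0.00156 at ssa16.

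A minimum of 100 reads removed all 15 CpGs of ssa04 (45 Mb), because 1 fish had fewer, so it gave no value there. No paired analysis was possible because each fish has its own number, and no number is shared between the sexes. With 2 to 6 fish of a sex in a group and 2 tanks per treatment, small differences could not be detected, and in ssa03 counting error limits them further. Sex and tank cannot be fully told apart in WH and CT at 3 days. Sex was also unevenly spread over the tanks in WN at both times and in CT at 4 weeks.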

Other observations

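The seventh region, ssa15 (chr15:46698401-46698820, 13 CpGs), had too few reads to be compared. Its median was 18.5 reads per CpG and fish, and 10 males and 10 females reached a mean of 30. In those fish its level was 1.73% ± 0.551 in males and 2.12% ± 0.911 in females (SD, n = 10 each), untested.

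The base after the CpG split the 94 CpGs into 30 CGT, 26 CGA, 22 CGC and 16 CGG sites. The estimate was higher in males at 19 of 30 CGT, 14 of 26 CGA, 11 of 22 CGC and 9 of 16 CGG sites, with median sizes of 0.237, 0.162, 0.147 and 0.170 SD between fish. Sites of a region share reads, so these values carry no test.

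Calls outside the regions were most numerous in CT 3-day female fish 84 (4029 calls at 158 CpGs), WH 4-week male fish 120 (2072 calls at 91 CpGs) and WN 4-week male fish 101 (960 calls at 194 CpGs).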
